A study of Homo sapiens with 15 samples.

Results

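The 44 genes described here encode proteins that carry a cell from the end of DNA replication through mitosis to the separation of the daughter cells. They were chosen by name, and each was read through the brightest of the array's probe sets that carry its symbol alone. All 44 were found among the 19775 genes of the array, through 85 probe sets. All 44 also passed the filter on dim probe sets, which left 14368 genes for testing, so every member entered each comparison.

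Messenger RNA was measured on Affymetrix U133 Plus 2.0 arrays in cells of SKOV3ip1, a human line from an epithelial cancer of the ovary. The no-folate extract came from a culture kept 7 days in folate-free medium, with no antibody. Folic acid (2 to 10 nM, where the labels write nm) was in the medium of the 4 remaining cultures over the same 7 days, and sample titles abbreviate the folate source as MTF or 5-MTF. The folate extract had no antibody, while the 003, 004 and MORAb003 extracts are named after the antibody given for 24 hours, 004 being the control antibody. MORAb-003 binds folate receptor alpha, the product of FOLR1. Whether 003 is the same reagent as MORAb003 is not stated in the labels, so they were treated as separate conditions.

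There was 1 culture and 1 RNA extract per condition, each split into 3 aliquots that went onto separate arrays, which makes 15 arrays. The 3 arrays of an extract are technical repeats. The p-values below therefore compare RNA extracts and cannot show how much independent cultures would vary. Levels are on the authors' log2 scale, on which a difference of 1 is a fold of 2, and a level of one gene is not set against that of another. A gene is called where its adjusted p is under 0.05 over all 14368 tested genes and the difference is at least 1.5-fold. In an extract of a whole culture, fewer cells in mitosis and less RNA per mitotic cell cannot be told apart.

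Entry into mitosis is driven by the kinase CDK1 bound to cyclin B, which is switched on by CDC25 phosphatases and assisted by the Polo and Aurora kinases. The spindle, built from microtubules and motor proteins, then pulls on the kinetochores of the chromosomes, and the spindle checkpoint holds the anaphase-promoting complex back until all are attached. Many of these genes are transcribed together late in the cell cycle, and their promoters often carry a cell cycle homology region (CHR) and CCAAT boxes, which are bound by the DREAM and MuvB complexes and by NF-Y. As a group, they are widely read as a measure of proliferation in tumours.

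The promoters of the 6 members that were called lower without folate are shown because the data bear on members that moved together. Sequences are from RefSeq on GRCh38.p14, from 100 bases before to 20 bases after the annotated start, read 5′ to 3′ on the strand of the gene. Capitals mark the CHR letters TTTGAA and the CCAAT box on either strand.
ANLN, chr7:36389762-36389881, plus strand: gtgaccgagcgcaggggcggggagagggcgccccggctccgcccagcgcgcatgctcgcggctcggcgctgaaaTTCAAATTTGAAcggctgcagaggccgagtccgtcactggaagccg
KIF11, chr10:92593030-92593149, plus strand: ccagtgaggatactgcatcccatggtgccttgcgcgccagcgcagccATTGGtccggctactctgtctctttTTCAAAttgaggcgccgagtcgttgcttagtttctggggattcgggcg
KIF20A, chr5:138179012-138179131, plus strand: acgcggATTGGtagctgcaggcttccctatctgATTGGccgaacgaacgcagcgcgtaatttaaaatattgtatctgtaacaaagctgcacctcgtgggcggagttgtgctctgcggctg
CDK1, chr10:60778378-60778497, plus strand: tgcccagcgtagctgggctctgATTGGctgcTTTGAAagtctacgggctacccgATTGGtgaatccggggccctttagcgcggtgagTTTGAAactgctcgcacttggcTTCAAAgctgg
CENPE, chr4:103198324-103198443, minus strand: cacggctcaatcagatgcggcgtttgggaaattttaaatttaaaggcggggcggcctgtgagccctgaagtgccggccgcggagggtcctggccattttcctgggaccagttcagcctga
CCNB1, chr5:69167050-69167169, plus strand: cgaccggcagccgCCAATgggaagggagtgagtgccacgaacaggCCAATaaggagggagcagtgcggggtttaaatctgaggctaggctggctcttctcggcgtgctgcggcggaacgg

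The CDK1 promoter holds 3 CHR matches and 2 CCAAT matches in this window, and the first CCAAT box begins 78 bases and the second 46 bases before the start. ANLN has a pair of CHR matches on opposite strands that abut each other, beginning 26 and 20 bases before the start. KIF11 has a CHR match at 28 bases and a CCAAT box at 53 bases before the start. KIF20A and CCNB1 each have 2 CCAAT boxes and no CHR match, and CENPE has neither motif in the window shown. RefSeq promoters of 300 bases (250 before to 50 after the start) matched 38 of the 44 members. AURKA, BIRC5, PBK, TPX2, TTK and UBE2C had no entry.

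In these longer windows, both strands searched, a CHR match was present for 28 of the 38 members (73.7%), against 13.6% of the 11417 tested genes with a promoter entry. A CCAAT box was present for 28 of 38 members (73.7%) against 42.3% of tested genes. Both motifs stood in the same promoter for 21 members (55.3%) against 5.65% of tested genes, and 3 members (CENPE, KIF2C and MELK) had neither. Of 36 G1/S and DNA replication genes with an entry, 1 (2.78%) had a CHR match and 22 (61.1%) had a CCAAT box. Some members have several annotated starts, which gave 48 windows. Of the 42 CHR matches over these windows, 21 began within the 60 bases before the start. Windows of ECT2 and of CDC25C overlap, so a site of each was counted in more than 1 window. The motifs overlapped in 1 member promoter. A match of letters is a description of the sequence and not a binding site.

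Epithelial markers were present, with 8 of 8 above the filter and summed log2 levels of 87.62 to 89.26 over the extracts, and so were 5 of 5 genes typical of ovarian cancer lines (51.03 to 52.18). Of 6 leukocyte genes, CD3E passed and PTPRC, MS4A1, CD14, NKG7 and LYZ did not (summed 37.61 to 38.17), while 7 of 9 fibroblast and endothelial genes passed (63.40 to 65.37) and COL3A1 and LUM did not. Array medians lay between log2 6.53 and 6.67. Replicate 1 of the 004 extract stood apart: it correlated with the other 004 arrays across probe sets at 0.948 to 0.95, against 0.993 to 0.998 within the other extracts. Its median member level was log2 9.73, against 10.64 and 10.67 on the other 004 arrays, so results are given with and without it where it changes them. The extracts also differed in the gap between 3′ and 5′ control probe sets of actin, a measure of RNA integrity in which a larger gap means less 5′ signal. It was widest in the no-folate extract, at log2 4.09 ± 0.15 (SD, n = 3 arrays), and in the 003 extract, at 4.02 ± 0.10. The 004 arrays averaged 3.46 ± 0.31, the folate arrays 3.24 ± 0.13 and the MORAb003 arrays 2.42 ± 0.13.

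The median level of the 44 members was lower in the no-folate and 003 extracts, which had the wider gaps, than in the other extracts. For the 003 arrays it was log2 10.11 ± 0.13 (SD, n = 3) and for the no-folate arrays 10.22 ± 0.20. The 004 arrays had a median of 10.35 ± 0.53, the folate arrays 10.68 ± 0.13 and the MORAb003 arrays, with the smallest gap, 10.75 ± 0.06. The median of 40 G1/S and DNA replication genes, read on the same arrays, lay between 10.39 and 10.58 on all arrays other than replicate 1 of 004, where it was 9.69. The part that RNA integrity plays in the member differences below was not tested.

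**Figure D1:**
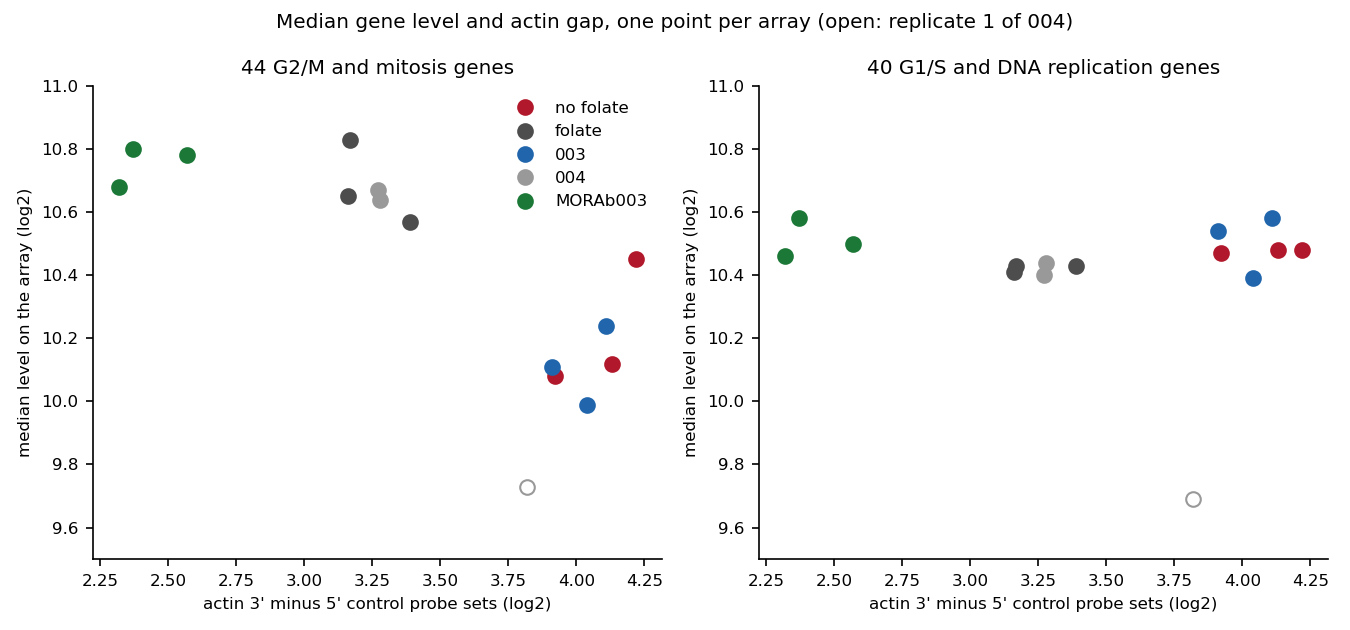
Median log2 level of the 44 G2/M genes (left) and of 40 G1/S and DNA replication genes (right) on each of the 15 arrays, against the log2 gap between the 3′ and 5′ actin control probe sets. The G2/M medians are 9.99 to 10.45 on the no-folate and 003 arrays, which have the largest gaps, and 10.57 to 10.83 on the folate and MORAb003 arrays, while the G1/S medians stay between 10.39 and 10.58 apart from replicate 1 of 004 (open circle).

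Without folate, the mitotic genes read lower than with folate. The differences were below 0 for 40 of 44 members, with a median log2 difference of −0.43 against 0.01 over all tested genes. Of the 44, 6 were called lower and 0 higher, where 1.8% of all tested genes were called lower and 0.905% higher. The 6 were ANLN, KIF11, KIF20A, CDK1, CENPE and CCNB1, with falls of 1.57-fold (CCNB1) to 1.92-fold (ANLN). All 3 no-folate arrays lay below all 3 folate arrays for 32 members, against 22.3% of all tested genes, and above them for 3. With replicate 1 of the 004 extract left out, 16 members were called lower and 0 higher, against 5.16% of all genes lower. Beside the 6 above, these were KIF18A, KIF23, PBK, ASPM, MAD2L1, SMC4, BUB1, NUF2, KIF15 and DLGAP5, which the paragraphs by role below give as not called on all 15 arrays. Leaving out a no-folate or folate array instead gave fewer calls: 0 without replicate 1 or 2 of the no-folate extract or replicate 1 or 3 of the folate extract, 3 without replicate 3 of the no-folate extract and 2 without replicate 2 of the folate extract. Over the 15 fits that each left out 1 array, the median stayed between −0.46 and −0.38. The actin gap was larger without folate by the values given above.

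**Figure D2:**
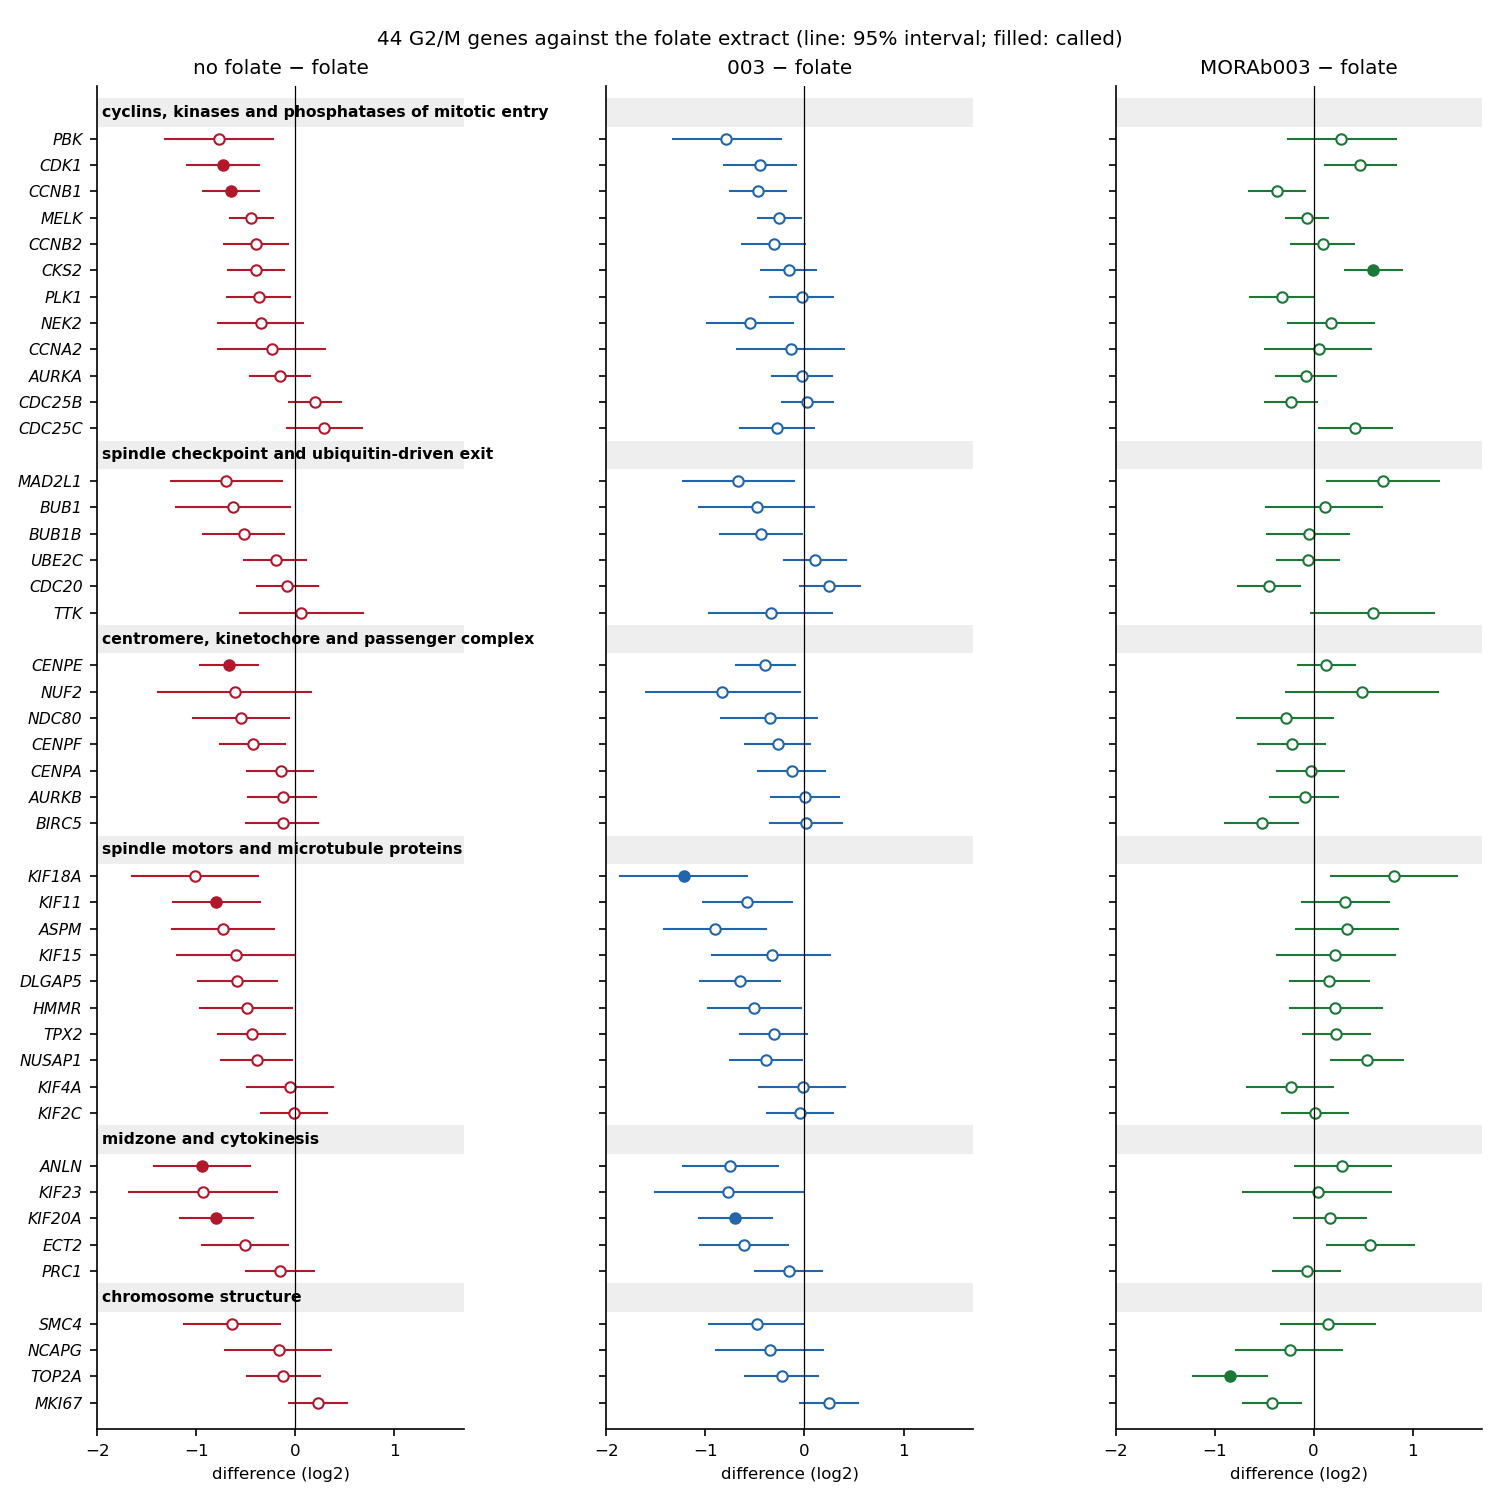
Log2 difference of each of the 44 members from the folate extract, grouped by role, for the no-folate, 003 and MORAb003 extracts (points; lines are 95% intervals from limma, filled points are called). Most points in the no-folate and 003 panels lie left of 0 (40 and 38 of 44), while the MORAb003 panel has 26 to the right and 18 to the left.

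Among the 12 cyclins, kinases and phosphatases of mitotic entry, 2 were called lower without folate and the median log2 difference was −0.38. The counts by role here and below stand against 1.8% of all tested genes called lower. A count of 0 or 1 in so short a list says little about a role. CDK1, the kinase that starts mitosis, had log2 levels of 11.10, 10.98 and 11.49 on the no-folate arrays and 12.02, 11.83 and 11.91 on the folate arrays. The groups did not overlap, and the log2 difference was −0.73 (SE 0.17, adjusted p = 0.0286). CCNB1, the cyclin B1 partner of CDK1, had log2 levels of 11.80, 11.83 and 11.92 without folate and 12.63, 12.37 and 12.49 with folate. Every no-folate array was lower, with a log2 difference of −0.65 (SE 0.13, adjusted p = 0.0166). CCNB2, cyclin B2, had log2 levels of 11.13, 11.33 and 11.32 against 11.76, 11.59 and 11.62, again without overlap, and its log2 difference of −0.40 was not called (SE 0.15, adjusted p = 0.165). CCNA2, cyclin A2, which acts in S phase and early mitosis, had log2 levels of 10.28, 10.17 and 10.56 against 10.67, 10.54 and 10.52. Its groups overlapped and the log2 difference was −0.24 (SE 0.25, adjusted p = 0.713).

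The Polo and Aurora kinases showed smaller differences. PLK1, a kinase of mitotic entry and spindle assembly, had log2 levels of 9.16, 9.42 and 9.39 without folate and 9.67, 9.68 and 9.73 with folate. No array overlapped, and the log2 difference of −0.37 was not called (SE 0.15, adjusted p = 0.187). AURKA, the centrosomal Aurora kinase, had log2 levels of 12.13, 12.11 and 12.15 against 12.35, 12.24 and 12.26. That is a log2 difference of −0.16 (SE 0.14, adjusted p = 0.646), in which the no-folate arrays are the lower ones. MELK, a kinase abundant in dividing cells, passed the adjusted p of 0.05 (adjusted p = 0.0258) with a log2 difference of −0.45, and at 1.37-fold it was under the fold minimum. PBK, a mitotic kinase, had a log2 difference of −0.77 (adjusted p = 0.107). CKS2, a small subunit that binds CDK1, had −0.40 and NEK2, a kinase of centrosome separation, −0.35, and neither was called. CDC25B and CDC25C, the phosphatases that activate CDK1, had log2 differences of 0.20 and 0.29, on the other side of 0 and not called.

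Of the 6 genes of the spindle checkpoint and of ubiquitin-driven exit, 0 were called, with a median log2 difference of −0.36. With replicate 1 of 004 left out of the limma fit, BUB1 and MAD2L1 were called lower (adjusted p = 0.000196 and 0.00207). BUB1, a checkpoint kinase at the kinetochore, had log2 levels of 8.56, 8.73 and 8.81 without folate and 9.54, 9.20 and 9.26 with folate. The arrays did not overlap, and the log2 difference was −0.63 (SE 0.27, adjusted p = 0.217). MAD2L1, which blocks the activator of the anaphase-promoting complex, had a log2 difference of −0.70 (adjusted p = 0.156), and BUB1B, its partner in that block, −0.52 (adjusted p = 0.152). CDC20, the activator itself, had log2 levels of 12.18, 12.15 and 11.98 against 12.13, 12.27 and 12.15. Here the arrays overlapped, with a log2 difference of −0.08 (SE 0.14, adjusted p = 0.861). UBE2C, the ubiquitin-conjugating enzyme that works with that complex, had −0.20, and TTK, the checkpoint kinase also called MPS1, 0.06, and neither was called.

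All 7 genes of the centromere, the kinetochore and the passenger complex had negative differences without folate, with a log2 median of −0.43, and 1 was called. CENPE, a kinesin that carries chromosomes to the spindle equator, had log2 levels of 7.18, 7.38 and 7.53 without folate and 8.19, 8.0 and 7.91 with folate. The arrays were fully apart, and the log2 difference was −0.67 (SE 0.14, adjusted p = 0.0165). NUF2 and NDC80, subunits of the microtubule-binding complex of the kinetochore, had log2 differences of −0.61 and −0.55, and CENPF, a large outer kinetochore protein, −0.43, with no call. The smallest differences were those of CENPA, the centromeric histone (−0.15), and of the passenger genes. AURKB, the kinase of the passenger complex, had log2 levels of 9.04, 9.17 and 9.04 against 9.20, 9.25 and 9.19, a log2 difference of −0.13 (SE 0.16, adjusted p = 0.769). BIRC5, survivin, had log2 levels of 11.01, 11.25 and 11.15 against 11.32, 11.20 and 11.28, with overlap and a log2 difference of −0.13 (SE 0.17, adjusted p = 0.782).

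The spindle and cytokinesis genes had the most negative medians. The 10 spindle motors and microtubule proteins had a median log2 difference of −0.54, all 10 were below 0, and 1 was called. KIF11, the motor that pushes the spindle poles apart, had log2 levels of 9.11, 9.40 and 9.62 without folate and 10.33, 10.08 and 10.12 with folate. Those arrays did not overlap, and the log2 difference was −0.80 (SE 0.21, adjusted p = 0.0443). KIF18A, which shortens kinetochore microtubules, had the most negative log2 difference of all members, −1.01 (SE 0.30), and was not called (adjusted p = 0.073). Its SD over arrays was 0.31 with folate, 0.16 without folate and 0.86 in the 004 extract, which enters the shared error. With replicate 1 of 004 left out, the SE of KIF18A was 0.12 and it was called (adjusted p = 1.63e-05). ASPM, a spindle pole protein, had −0.73 (adjusted p = 0.105). KIF15, DLGAP5, HMMR, TPX2 and NUSAP1, which move or stabilise spindle microtubules, had log2 differences of −0.60 to −0.39, none of them called. KIF4A (−0.05) and KIF2C (−0.01), a chromosome-bound motor and a microtubule depolymerase, were close to 0.

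The 5 midzone and cytokinesis genes had a median log2 difference of −0.80, all 5 were below 0, and 2 were called. ANLN, anillin, a scaffold of the contractile ring, had log2 levels of 9.74, 9.73 and 10.01 without folate and 10.82, 10.69 and 10.80 with folate. The lowest folate array was above the highest no-folate array, and the log2 difference was −0.94 (SE 0.23, adjusted p = 0.0342). KIF20A, a midzone kinesin, had log2 levels of 9.60, 9.74 and 9.70 against 10.60, 10.43 and 10.40. It too was apart on every array, with a log2 difference of −0.80 (SE 0.17, adjusted p = 0.021). KIF23, the kinesin of the centralspindlin complex, had −0.93 with a larger SE of 0.35 (adjusted p = 0.155). With replicate 1 of 004 left out, its SE was 0.15 and it was called (adjusted p = 0.000199). ECT2, the exchange factor that triggers furrowing, had −0.51 and PRC1, which bundles midzone microtubules, −0.16, and neither was called.

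Of the 4 chromosome structure genes, 0 were called and 3 were below 0. TOP2A, the topoisomerase that untangles chromosomes, had log2 levels of 11.80, 11.56 and 11.90 without folate and 11.89, 11.94 and 11.80 with folate. Its arrays overlapped, and the log2 difference was −0.12 (SE 0.17, adjusted p = 0.813). MKI67, the source of the Ki-67 proliferation antigen, had log2 levels of 10.91, 10.85 and 10.83 against 10.65, 10.62 and 10.62. The no-folate arrays were the higher ones, and the log2 difference of 0.23 was not called (SE 0.14, adjusted p = 0.397). SMC4 and NCAPG, subunits of condensin, had log2 differences of −0.64 and −0.17, without a call. With replicate 1 of 004 left out of the limma fit, SMC4 was called lower (adjusted p = 0.00113).

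**Figure D3:**
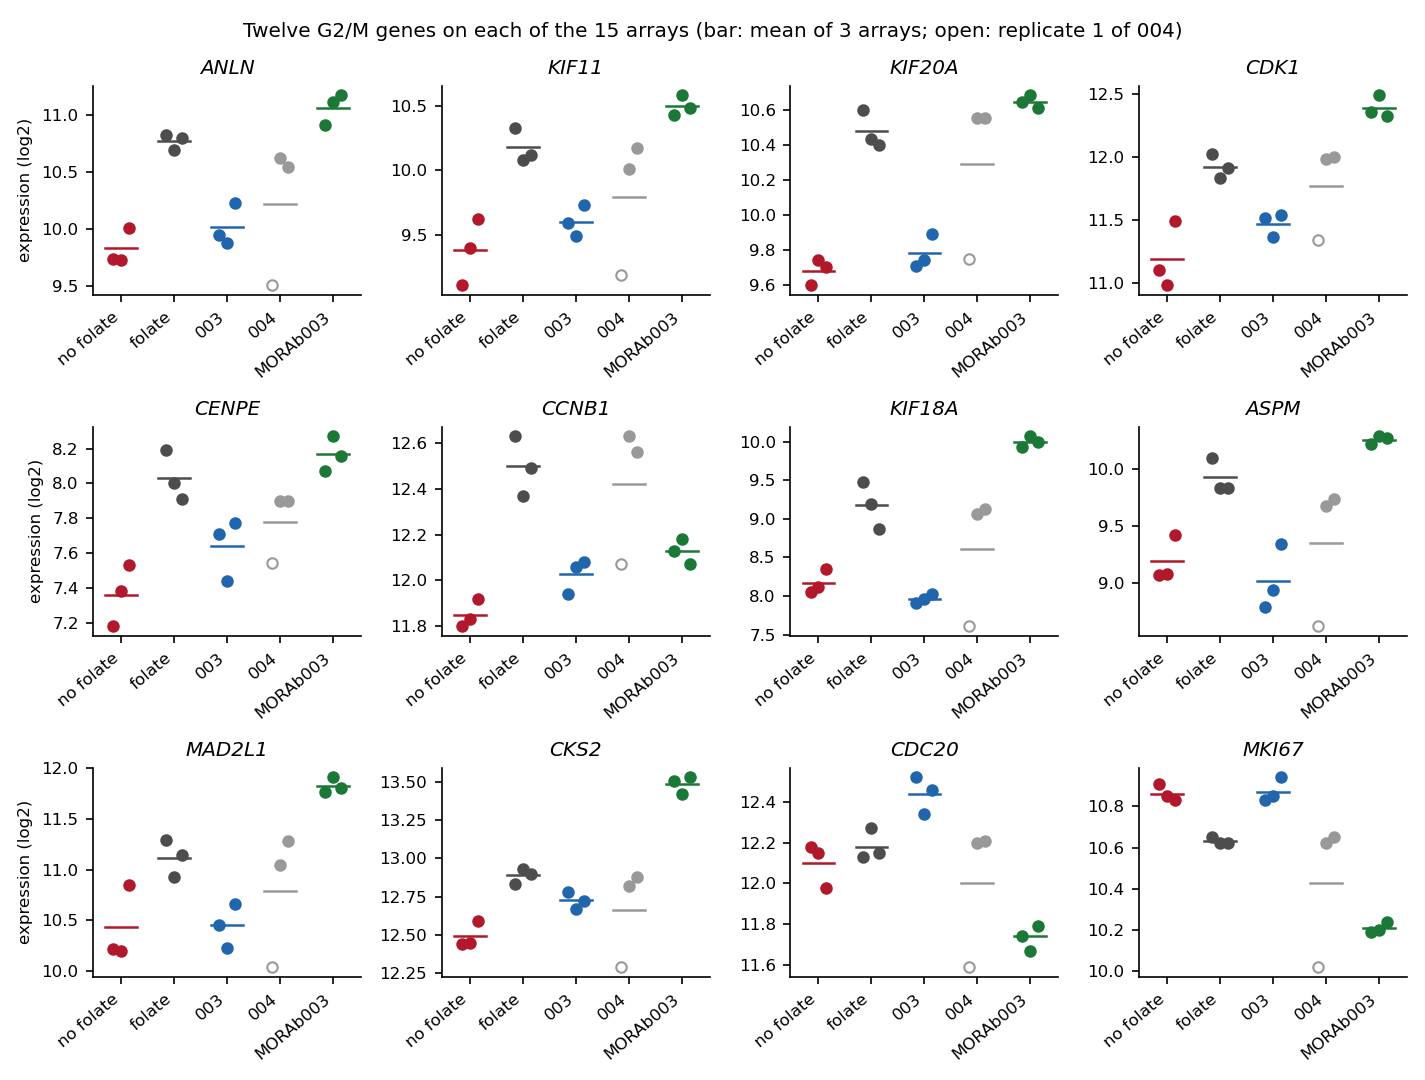
Log2 level of 12 members on each of the 15 arrays (points), with the mean of the 3 arrays of an extract as a bar. Levels of ANLN, KIF11, KIF20A, CDK1, CENPE and CCNB1 are lower on the no-folate arrays than on the folate arrays, KIF18A and MAD2L1 are highest on the MORAb003 arrays, CDC20 and MKI67 are lower there than in the folate extract, and replicate 1 of 004 (open circle) is the lowest 004 array for each of the 12.

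In the extract treated with 003, the mitotic genes were again lower than in the folate extract, with fewer calls. The log2 difference was below 0 for 38 of 44 members, with a median of −0.34 against 0.03 over all tested genes, and 2 members were called lower and 0 higher. Of all tested genes, 1.59% were called lower and 0.432% higher. All 3 arrays of 003 lay below all 3 folate arrays for 31 members, against 24.5% of all tested genes. KIF18A had log2 levels of 7.91, 7.96 and 8.02 with 003 and 9.48, 9.20 and 8.87 with folate. The groups were well apart, and the log2 difference was −1.22, a fold of 2.33 (SE 0.30, adjusted p = 0.0417). KIF20A had log2 levels of 9.71, 9.74 and 9.89 against 10.60, 10.43 and 10.40, also without overlap. Its log2 difference was −0.70 (SE 0.17, adjusted p = 0.0425).

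Both calls were close to the threshold. Each was lost in 12 of the 15 fits that left out 1 array, including every fit that left out a no-folate, folate, 003 or MORAb003 array, after which 0 members were called. With array date as a block, 0 members were called. Without replicate 1 of 004, 10 members were called lower, against 6.55% of all tested genes. The 10 were KIF18A, ASPM, NUF2, PBK, KIF23, ANLN, KIF20A, MAD2L1, DLGAP5 and ECT2, so 4 of the 5 midzone and cytokinesis genes were among them. The no-folate and 003 comparisons share the folate arrays, so their values are set side by side. The median log2 difference was −0.80 without folate and −0.70 with 003 for midzone and cytokinesis genes, −0.54 and −0.45 for spindle genes, and −0.38 and −0.27 for mitotic entry genes. It was −0.36 and −0.39 for checkpoint and exit genes, −0.43 and −0.27 for centromere and kinetochore genes and −0.15 and −0.29 for chromosome structure genes. The actin gap was also larger in the 003 extract than in the folate extract.

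Several members had differences near 0 with 003. PLK1 had log2 levels of 9.69, 9.59 and 9.71 with 003, with a log2 difference of −0.03 from folate and a 95% interval of −0.35 to 0.29. AURKA (−0.03, interval −0.33 to 0.28), AURKB (0.01, −0.34 to 0.35) and BIRC5 (0.02, −0.35 to 0.38) were as close to 0. With all arrays in the fit, the lower bounds of these intervals are about as low as the median difference of the members (−0.34). With replicate 1 of 004 left out, these differences were the same and the SEs were smaller. They were 0.07 for PLK1 (0.15 with that array), 0.06 for AURKA (0.14), 0.08 for AURKB (0.16) and 0.08 for BIRC5 (0.17). So the nearness of the lower bounds to −0.34 rests on that array. CDC20 and MKI67 had positive log2 differences of 0.25 each, without a call. CDC20 read log2 12.52, 12.34 and 12.46 with 003, above all folate arrays, and MKI67 read 10.83, 10.85 and 10.94, also above all of them. CDK1 and CCNB1 had log2 differences of −0.45 and −0.47 (adjusted p = 0.147 and 0.0678).

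With MORAb003 the members lay on both sides of 0, as did all tested genes. Against the folate extract, 26 members had a positive and 18 a negative log2 difference, where 6382 of all 14368 tested genes were above 0 and 7986 below. The member median was 0.10 against −0.04 over all tested genes, and 0.01 against −0.07 with quantile normalization. CKS2 was called higher and TOP2A lower, which is 1 of 44 each way, where 4.77% of all tested genes were called higher and 1.81% lower. The MORAb003 arrays were all above the folate arrays for 15 members (26.2% of all tested genes) and all below them for 12 (28.8%). CKS2 had log2 levels of 13.51, 13.42 and 13.53 with MORAb003 and 12.83, 12.93 and 12.90 with folate. There was no overlap, and the log2 difference was 0.60, a fold of 1.52 (SE 0.13, adjusted p = 0.0116). CKS2 was no longer called without replicate 1 of folate (log2 0.57) or replicate 1 or 3 of MORAb003 (0.59 and 0.58).

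TOP2A had log2 levels of 11.05, 11.02 and 11.02 with MORAb003 and 11.89, 11.94 and 11.80 with folate by its brightest probe set. That set gave a log2 difference of −0.84, a fold of 1.79 (SE 0.17, adjusted p = 0.00812). The next TOP2A probe set gave 0.30, so the direction for this gene depends on the probe set, and with the mean of all its sets the log2 difference was −0.23 (adjusted p = 0.218). The 12 members below the folate arrays were CCNB1, CDC25B, PLK1, AURKA, MELK, CDC20, NDC80, AURKB, BIRC5, KIF4A, TOP2A and MKI67. BIRC5 had a log2 difference of −0.52 (adjusted p = 0.0621), CDC20 −0.45 (0.0587), MKI67 −0.42 (0.0616), CCNB1 −0.37 (0.0871) and PLK1 −0.32 (0.176), with no call. These are brightest sets: the other CCNB1 set gave 0.44, and the dimmer BIRC5 sets gave −0.27, 0.20 and −0.23.

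On the other side of 0, KIF18A had a log2 difference of 0.81 (adjusted p = 0.0933) from folate, with levels of 9.93, 10.07 and 10.00 on the MORAb003 arrays. MAD2L1 had 0.70 (0.0976), TTK 0.60 (0.2), ECT2 0.57 (0.0853), NUSAP1 0.54 (0.0523) and CDK1 0.47 (0.0851). The dimmer NUSAP1 set gave −0.40, while the other sets of MAD2L1, ECT2 and CDK1 above the filter were also above 0. Without replicate 1 of 004, KIF18A, MAD2L1, TTK and CKS2 were called higher and TOP2A lower, against 8.36% of all tested genes higher and 1.99% lower. By role, the median log2 difference from folate was 0.23 for spindle genes, 0.17 for midzone and cytokinesis genes, 0.07 for mitotic entry genes, 0.03 for checkpoint and exit genes, −0.09 for centromere and kinetochore genes and −0.33 for chromosome structure genes. The actin gap was smaller with MORAb003 than with folate.

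The extract with the control antibody 004 served as a second folate-fed reference. Against folate, 0 members were called in limma, as were 0% of all tested genes in each direction, with 4 members lower and 0 higher at an unadjusted p under 0.05. Of all 14368 genes, 983 were lower and 291 higher at that p. The log2 difference was below 0 for 42 of 44 members with a median of −0.30, against −0.13 over all genes. Without replicate 1 of 004 the median was 0.00, with 22 members on each side of 0 and differences of −0.31 to 0.29. In that fit 0 were called and 2 were higher and 0 lower at an unadjusted p under 0.05, as were 247 and 237 of all 14146 genes. KIF18A, for example, had log2 levels of 7.61, 9.07 and 9.13 on the 004 arrays, and NUF2, 7.33, 8.92 and 9.17.

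Against 004, the 003 extract had 0 members called, with a median log2 difference of −0.07 against 0.07 over all genes. Of all tested genes, 0.397% were called lower and 3.07% higher. Without replicate 1 of 004 the median was −0.34 and 8 members were called lower, against 5.54% of all tested genes. They were KIF18A (−1.14), PBK (−0.82), KIF23 (−0.78), KIF20A (−0.77), NUF2 (−0.74), MAD2L1 (−0.72), ASPM (−0.69) and DLGAP5 (−0.62), all as log2 differences. So the comparison of 003 with its control antibody rests on that array: 0 calls with it and 8 without it.

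The MORAb003 extract had 11 members called higher and 0 lower than 004, against 17.6% and 2.32% of all tested genes, with a median log2 difference of 0.36 against 0.04. The largest were KIF18A (log2 1.39, SE 0.30, adjusted p = 0.00415), TTK (1.34, SE 0.29, 0.0044) and NUF2 (1.15, SE 0.36, 0.0256). TTK had log2 levels of 8.43, 8.63 and 8.58 with MORAb003 and 6.31, 7.42 and 7.87 with 004. MAD2L1 (1.04), ECT2 (0.98), ASPM (0.92), NUSAP1 (0.90), ANLN (0.84), CKS2 (0.83), KIF11 (0.71) and CDK1 (0.62) were the other called members. Without replicate 1 of 004 the median was 0.06, and 6 members were called higher (KIF18A, TTK, ECT2, MAD2L1, NUSAP1 and CKS2) and 2 lower (TOP2A and BIRC5), against 9.95% and 2.4% of all tested genes. Leaving out replicate 2 or 3 of 004 instead gave 17 and 19 calls. Quantile normalization gave 8 higher and 2 lower.

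The antibody extracts 003 and MORAb003 differed from each other in more members than either differed from folate. Of 44 members, 18 were called higher with MORAb003 and 3 lower, against 17.6% and 7.8% of all tested genes, with a median log2 difference of 0.53 against −0.09. The MORAb003 arrays lay above all 003 arrays for 27 members, against 32.4% of all genes, and below them for 8, against 40%. KIF18A had log2 levels of 9.93, 10.07 and 10.00 with MORAb003 and 7.91, 7.96 and 8.02 with 003. The gap between the groups was the widest of all members, at 4.09-fold (log2 2.03, SE 0.30, adjusted p = 0.000176). MAD2L1 had log2 levels of 11.77, 11.91 and 11.81 against 10.45, 10.23 and 10.66, again fully apart, with a log2 difference of 1.38 (SE 0.26, adjusted p = 0.00104). NUF2 had log2 levels of 9.45, 9.72 and 9.68 against 8.28, 7.94 and 8.70, and a log2 difference of 1.31 (SE 0.36, adjusted p = 0.00971).

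ASPM had log2 levels of 10.22, 10.29 and 10.28 with MORAb003 and 8.79, 8.94 and 9.34 with 003, a log2 difference of 1.24 (SE 0.24, adjusted p = 0.0012). That is its brightest probe set, and its dimmer sets gave −0.47 and 0.20. With the mean of all its sets the difference was 0.32 and was not called (adjusted p = 0.295). ECT2 had log2 levels of 11.81, 11.91 and 11.94 against 10.76, 10.45 and 10.90, a log2 difference of 1.18 (SE 0.20, adjusted p = 0.00055). PBK had log2 levels of 11.06, 11.17 and 10.88 against 9.86, 9.83 and 10.20, a log2 difference of 1.07 (SE 0.25, adjusted p = 0.00426). None of these groups overlapped. ANLN (1.04), NUSAP1 (0.93), TTK (0.93), CDK1 (0.92), KIF11 (0.90), KIF20A (0.86), DLGAP5 (0.81), CKS2 (0.77), HMMR (0.73), NEK2 (0.72), CDC25C (0.70) and SMC4 (0.63) were the other members called higher, with log2 differences in brackets. The direction for NUSAP1 depends on the probe set, as its dimmer set gave −0.56.

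The 3 members called lower with MORAb003 than with 003 were CDC20, MKI67 and TOP2A. CDC20 had log2 levels of 11.74, 11.67 and 11.79 with MORAb003 and 12.52, 12.34 and 12.46 with 003. It was lower on every MORAb003 array, by a log2 difference of −0.70 (SE 0.14, adjusted p = 0.00167). MKI67 had log2 levels of 10.19, 10.20 and 10.24 against 10.83, 10.85 and 10.94, a log2 difference of −0.66 (SE 0.14, adjusted p = 0.00169). These arrays too were apart. The dimmer MKI67 sets gave −0.41, −0.48 and −0.23, and the mean of all its sets gave −0.45, under the fold minimum and so not called. TOP2A had a log2 difference of −0.61 (SE 0.17, adjusted p = 0.0115) by its brightest probe set and 0.85 by the next, and 0.09 (adjusted p = 0.553) with the mean of its sets. The others whose MORAb003 arrays all lay below were CDC25B, PLK1, AURKA, BIRC5 and KIF4A. CCNB1 (0.10), CCNA2 (0.19), AURKA (−0.05), AURKB (−0.10) and KIF2C (0.06) had log2 differences near 0 by their brightest sets, without a call. Their dimmer sets were further from 0: CCNB1 0.69, CCNA2 0.82, KIF2C 0.67, AURKA 0.23 and 0.26, and AURKB −0.49. The actin gap differed more between these extracts than between any other pair that was compared.

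The order of the extracts differed between members. With replicate 1 of 004 left out, the highest mean was in the MORAb003 extract for 24 members, in 004 for 11, in folate for 6, in 003 for 2 (CDC20 and MKI67) and in the no-folate extract for 1 (CDC25B). The lowest mean was in the no-folate extract for 24 members, in 003 for 14 and in MORAb003 for 6, namely BIRC5, CDC20, CDC25B, KIF4A, MKI67 and TOP2A. Neither the folate nor the 004 extract was lowest for any member. The folate and 004 extracts differed in 0 called members, so their order is not resolved. CDK1 had mean log2 levels of 11.19 ± 0.27 (SD, n = 3 arrays) without folate, 11.47 ± 0.10 with 003, 11.92 ± 0.09 with folate and 12.39 ± 0.09 with MORAb003. CCNB1 had another order by its brightest probe set, at 11.85 ± 0.06 without folate, 12.03 ± 0.07 with 003, 12.13 ± 0.06 with MORAb003 and 12.50 ± 0.13 with folate. Its other set put MORAb003 above folate, by a log2 difference of 0.44, so the order for this gene depends on the probe set. With all 15 arrays, 8 members were lowest in the 004 extract.

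Other probe sets of the same gene did not always follow the brightest one. Of the 41 other probe sets of 23 members, 30 were above the filter. The sign of their difference matched that of the brightest set for 24 of 30 without folate, 25 of 30 with 003 and 19 of 30 with MORAb003, each against folate, and their median log2 differences were −0.22, −0.26 and 0.16. CDK1 was lower without folate on its 3 sets above the filter (log2 −0.73, −1.07 and −1.24), and ANLN on both of its sets (−0.94 and −1.88). CCNB1 was not: its brightest set gave −0.65 and its other set −0.02, and the mean of both gave −0.33 (adjusted p = 0.383). CCNA2, not called, had −0.24 on the brightest set and −0.94 on the other. ASPM had −0.73 on the brightest set and 0.37 and 0.92 on its dimmer sets, and CENPF −0.43 and 0.06. For MKI67 the sets gave −0.42, −0.31, 0.11 and 0.03 with MORAb003 against folate. KIF11, KIF20A, CENPE and KIF18A have 1 probe set each, so their values have no such check.

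**Figure D4:**
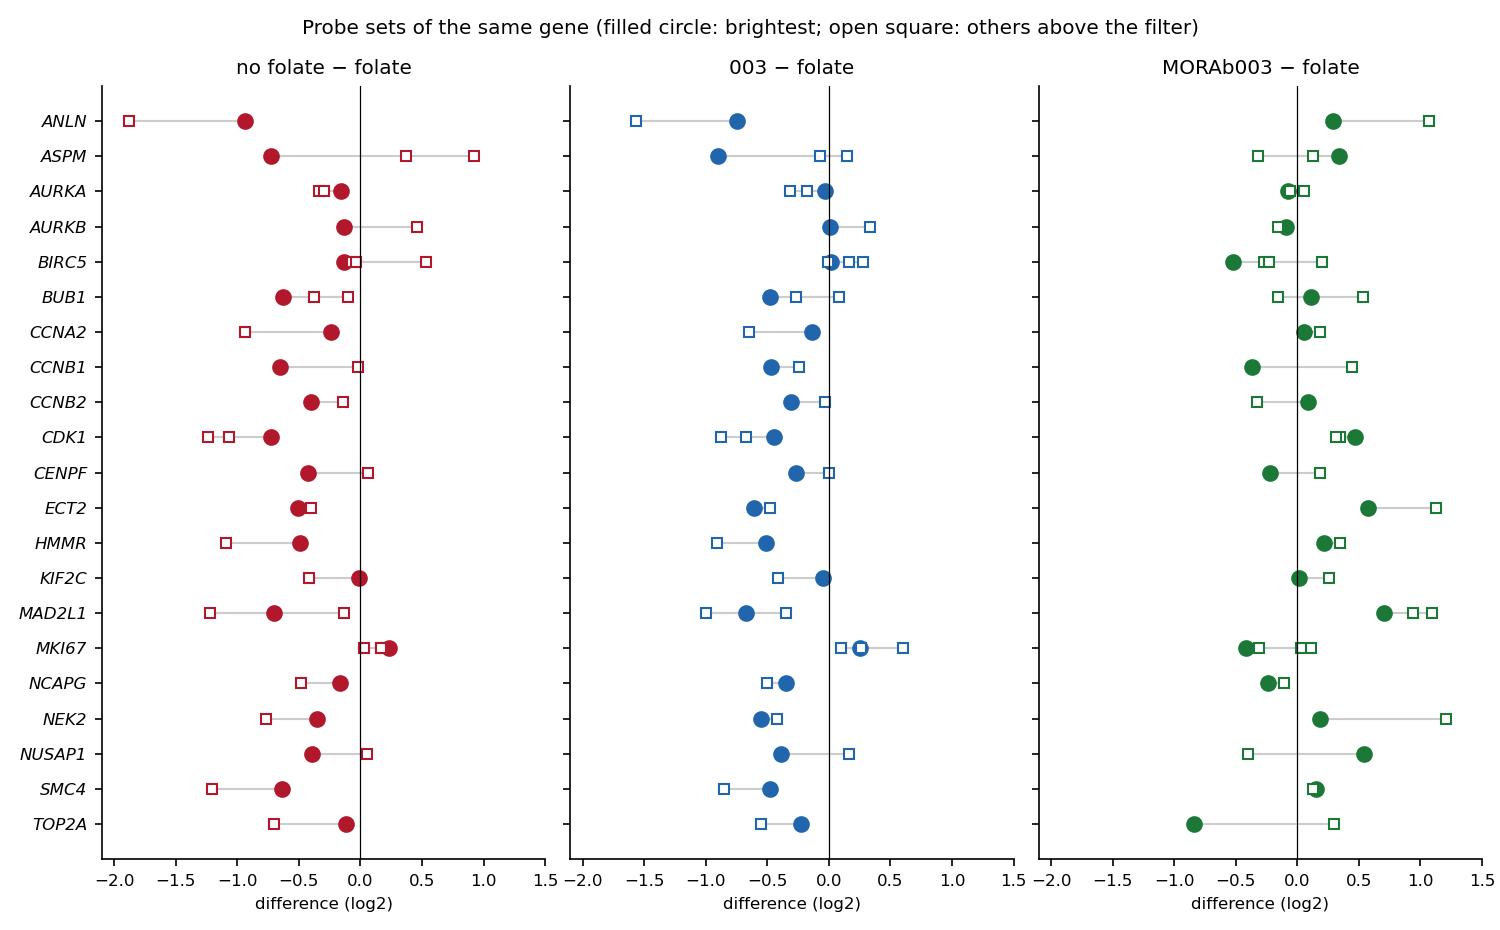
Log2 difference from folate by probe set for the members with several sets above the filter (filled circle: brightest set; open squares: the others). CDK1, ANLN, HMMR and SMC4 lie left of 0 on every set plotted in the no-folate panel, whereas TOP2A has sets on both sides of 0 in the MORAb003 panel (−0.84 and 0.30).

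Lists of related genes of the pathway had medians below 0 without folate as well. Without folate, the median log2 difference was −0.36 over 18 cohesin, securin and condensin genes, −0.26 over 20 spindle and cytokinesis genes, −0.24 over 33 centromere, kinetochore and checkpoint genes and −0.15 over 12 genes of mitotic entry. Called lower were RAD21, a cohesin subunit (−0.83, adjusted p = 0.0499), FAM83D, a spindle protein (−1.04, 0.00331), CEP55, which acts in abscission (−0.87, 0.0262), SPDL1, a kinetochore protein (−0.76, 0.00492), and CDKN3, a phosphatase of CDK (−0.79, 0.0325). These are 1 of 18, 2 of 20, 1 of 33 and 1 of 12 genes, with 0 called higher in each list, where 1.8% of all tested genes were called lower, 0.905% were called higher and the median was 0.01. Of 14 genes of the anaphase-promoting complex 0 were called (median −0.08), and of 4 CDK inhibitors 0 (median −0.02). PTTG1, securin, had −0.24 (adjusted p = 0.28) and WEE1, the kinase that holds CDK1 inactive, −0.34 (adjusted p = 0.25).

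With 003, FAM83D (log2 −0.73, adjusted p = 0.0264) and STAG2, a cohesin subunit (−0.99, 0.0222), were called lower than with folate. That is 1 of 20 spindle and cytokinesis genes and 1 of 18 cohesin, securin and condensin genes, with 0 called in the other related lists. Of all tested genes, 1.59% were called lower and 0.432% higher in this comparison. With MORAb003, 9 genes of these lists rose against folate: CENPH (log2 1.30), MIS12 (0.92) and KNTC1 (0.89) of the kinetochore, ANAPC10 (1.29) and FBXO5 (0.88), a subunit and an inhibitor of the anaphase-promoting complex, NCAPG2 (0.68) of condensin, WEE1 (0.60, adjusted p = 0.0245), and RBL2 (0.93) and RBBP4 (0.86), subunits of DREAM. GTSE1 (−0.95), which binds microtubules in G2, and ENSA (−0.75), an inhibitor of the phosphatase PP2A, fell. In each of these lists the share called is to be read against 4.77% of all genes higher and 1.81% lower, and counts were 3 of 33, 2 of 14, 1 of 18, 1 of 12 and 2 of 15 higher.

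Among 15 regulators of the programme, 1 was called lower and 0 higher without folate, where 1.8% of all tested genes were called lower and 0.905% higher. FOXM1, a transcription factor of G2/M genes, had log2 levels of 10.55, 10.54 and 10.42 without folate and 10.54, 10.49 and 10.51 with folate. The groups overlapped, with a log2 difference of −0.01 (SE 0.19, adjusted p = 0.99). MYBL2, which joins MuvB at these promoters, had 10.82, 10.68 and 10.58 against 10.58, 10.74 and 10.74, a log2 difference of 0.01 (SE 0.20, adjusted p = 0.993). TFDP1, a partner of E2F, was called lower, at −0.74 (adjusted p = 0.00372), with a median of −0.24 over the 15. With MORAb003 against 003, 7 of the 15 regulators were called higher and 2 lower, with a median log2 difference of 0.65, against −0.09 over all genes, of which 17.6% were called higher and 7.8% lower. The highest were RBBP4 (1.64) and RBL2 (1.49), subunits of DREAM, E2F5 (1.14), a repressive E2F, and NFYB (1.05), a subunit of NF-Y. The 2 lower were FOXM1 (−0.68, adjusted p = 0.0116) and MYBL2 (−0.74, adjusted p = 0.0102). CDKN1A, the CDK inhibitor p21, had log2 differences from folate of 0.04 without folate, 0.17 with 003 and −0.05 with MORAb003, with no call.

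The 40 tested G1/S and DNA replication genes had 0 calls without folate and 0 with 003, with a median log2 difference of −0.07 in each, against −0.43 and −0.34 for the members. At an unadjusted p under 0.05, 7 of 40 were lower and 3 higher without folate, against 26 of 44 lower and 0 higher among the members and 1523 lower and 1161 higher among all 14368 genes. With 003 these counts were 5 lower and 5 higher, against 20 lower and 0 higher among the members and 1731 lower and 1349 higher among all genes. Leaving out replicate 1 of 004 gave 1 G1/S gene called lower without folate and 0 with 003. With MORAb003, 1 G1/S gene, CCNE2, was called higher than with folate (log2 1.03, adjusted p = 0.0467), against 4.77% of all genes. G1/S genes were also among the calls between antibody extracts. With MORAb003, 10 of 40 were called higher and 0 lower than with 003 (median 0.23), and 9 of 40 higher and 0 lower than with 004 (median 0.34), against 17.6% of all genes higher in each. The count against 004 was 2 without replicate 1 of 004.

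A further fit used the 5 extract means in 3 groups, which holds the only spread between cultures in the series and has 2 residual degrees of freedom. It takes the folate and 004 cultures as equal controls and 003 and MORAb003 as 1 treatment, which the labels do not state. In limma, 0 members and 0 of 14368 genes were called for the no-folate culture against the folate and 004 cultures. The median log2 member difference was −0.32 there, and 0 members had an unadjusted p under 0.05, as did 127 of all genes (0.884%). For the 003 and MORAb003 cultures together, 0 members and 0 genes were called, the median member difference was 0.02, and 47 genes (0.327%) and 0 members had an unadjusted p under 0.05. The lowest adjusted p of a member was 1 in both. With 1 no-folate culture, 2 degrees of freedom and a spread that includes the difference between 003 and MORAb003, this fit says nothing about the members either way.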

How the data were processed

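Values are the authors' deposited log2 expression per probe set on Affymetrix U133 Plus 2.0 arrays. Per the labels' protocols, Trizol RNA was turned into biotinylated cRNA. How probes were summarised and normalized is not given in the sources used here. Deposited log2 values ran from 4.0 to 15.5 and were used without further normalization, and a constant added before the log, if any, would shrink the differences of dim genes. Of 54675 probe sets, 62 were controls, 41091 carried 1 gene symbol (41037 matched through the Entrez identifier), 1801 several and 11721 none. The brightest probe set over the 15 arrays stood for its gene. Genes below log2 6.6, the median of all probe sets, in every extract mean were left out.

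Group means of the 5 extracts were fitted to 15 arrays by limma 3.58.1 in R 4.3.3 (lmFit, then eBayes), which left 10 residual degrees of freedom. Benjamini-Hochberg adjustment ran over all 14368 tested genes within a comparison. Intervals are 95% intervals of the fit. Promoters were searched as plain letters in the RefSeq windows. The members, the lists of related genes and the tests were chosen with earlier results of these data known, so counts and medians of lists stand beside those of all tested genes and no list was tested. Given in full were up to 6 called members each way per comparison and CDK1, CCNB1, CCNB2, CCNA2, PLK1, AURKA, AURKB, MKI67, TOP2A, CDC20, BIRC5 and BUB1. Of related lists, up to 4 called genes each way and FOXM1, MYBL2, WEE1, CDKN1A and PTTG1 were named. The fits were tested on simulated data. The number of arrays, the single culture of each condition and the spread of replicate 1 of 004, which enters the shared error, limit the precision. Alternatives were quantile normalization, other filters, the mean of a gene's probe sets, a 2-fold minimum, replicate number or array date as a block, the arrays of the first date, the 6 arrays compared, array weights and leaving out each array.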

Additional observations from a re-analysis of the deposited data

How the results depend on the processing

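The median member difference kept its sign under each alternative run for no folate, 003 and MORAb003 against folate and for MORAb003 against 003, and called members kept theirs with 1 exception: TOP2A, MORAb003 minus 003, was 0.09 with the mean of its probe sets. Counts of called members moved, and the cause was not tested. For no folate against folate, 6 calls became 10 with quantile normalization, 0 with a 2-fold minimum, 0 on the first date, and 16 with the 6 arrays compared or with array weights. For 003 against folate, 2 became 6 with quantile normalization, 1 with a 2-fold minimum, 10 with 6 arrays, 9 with array weights, and 0 with no filter, the date block or the first date. For MORAb003 against folate, 2 became 4 with quantile normalization or mean probe sets, 0 with a 2-fold minimum or the first date, 5 with 6 arrays and 6 with array weights. For MORAb003 against 004, 11 became 4 with a 2-fold minimum and 0 with 6 arrays, and the median of 0.36 became 0.06 with quantile normalization and 0.08 with array weights. For MORAb003 against 003, 21 became 7 with a 2-fold minimum. For 003 against 004, 0 became 2 with quantile normalization and 11 with array weights, and the median of −0.07 became −0.34 with array weights, −0.18 with quantile normalization and 0.01 on the first date, where its sign turned. For 004 against folate, the median of −0.30 became 0 with array weights, −0.07 with quantile normalization and −0.45 on the first date.

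Leaving out each array in turn gave 0 to 16 calls for no folate, 0 to 10 for 003 and 1 to 5 for MORAb003, each against folate. It gave 8 to 19 for MORAb003 and 0 to 8 for 003, each against 004, 17 to 22 for MORAb003 against 003 and 0 for 004 against folate. The medians ran from −0.46 to −0.38, −0.41 to −0.29 and 0.05 to 0.17 for no folate, 003 and MORAb003 against folate. They ran from 0.06 to 0.49 and −0.34 to 0.11 for MORAb003 and 003 against 004, 0.47 to 0.59 for MORAb003 against 003 and −0.45 to 0.00 for 004 against folate. Replicate 1 of 004 received an array weight of 0.0254, and the weights did not reach their tolerance. Deviations of same-numbered arrays from their extract means had a median correlation of −0.06 over 30 pairs (−0.55 to 0.52). Over 60 pairs of different number the median was 0.01 (−0.51 to 0.56). Deviations from the mean of so few arrays are not independent, so whether the numbers pair the samples is not resolved. Replicates 1 and 2 of each extract share the first array date, and replicate 3 has the other date. The replicate block left 0 calls for 003 against folate and changed no other count by over 1.5 times. The fit on extract means without replicate 1 of 004 was added after seeing the data and also gave 0 calls.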
